A study of Mus musculus with 31 samples.

Results

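The long noncoding RNAs (lncRNAs) Malat1, Neat1, Firre, Pvt1, Kcnq1ot1, Tug1 and Miat were followed in newly made and preexisting RNA of mouse embryonic stem cells that had lost Dicer1 or kept it. These 7 genes were chosen by name for their nuclear or regulatory roles, out of 57193 genes and unmatched entries with exonic signal, of which 6604 were lncRNA genes. Dicer1 encodes Dicer, the nuclease that trims precursor hairpins to mature microRNAs. The Dicer-depleted group and the wild-type (WT) group both came from DTCM23/49 XY stem cells with a conditional Dicer allele. Loss of Dicer1 was induced with 800 nM 4-hydroxytamoxifen, and the labels give 8 days of treatment for depleted and WT cells alike. RNA made during 10 or 15 minutes was labelled with 200 µM 4-thiouridine (4sU) and separated from the unlabelled RNA, called preexisting here. The titles of the preexisting libraries end in tot, and whether labelled RNA was left in them was not tested. Each genotype had 2 biological replicates, called cultures here, each with a 10 and a 15 minute library of both fractions, so 16 libraries in all. Small RNA was sequenced in 3 libraries per day of treatment, of which days 8 and 0 are used here. The titles of these small RNA libraries all carry KO and none carries WT, so day 0 is not the WT group of the 4sU libraries. The title of the study asks whether microRNAs need translation to destabilise their targets, which makes RNAs that are not translated a natural contrast.

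A lncRNA is transcribed and often spliced like an mRNA but has no long reading frame, and many lncRNAs stay in the nucleus. Malat1 accumulates in nuclear speckles, the stores of splicing factors, and Neat1 is the scaffold around which paraspeckles assemble. Firre binds the nuclear matrix protein Hnrnpu through its repeats, Kcnq1ot1 silences an imprinted gene cluster in cis from the paternal chromosome, and Pvt1 lies next to Myc. Tug1 is found in both nucleus and cytoplasm, with introns often retained, and Miat forms nuclear bodies in neurons. 4sU labelling separates recent synthesis from stock: an RNA that is made and lost quickly is rich in the labelled fraction, and a long-lived one in the preexisting fraction.

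Of 5 microRNAs whose seeds were searched, 4 are shown first, since a seed sets which RNA letters it can pair with. Mature sequences are from RefSeq (GRCm38.p6), with the seed, bases 2 to 8, in capitals. Of the microRNAs searched, miR-295-3p is the best known from mouse stem cells, miR-17-5p and miR-92a-3p come from the Mir17hg cluster, and miR-16-5p is shown for Firre.
miR-295-3p: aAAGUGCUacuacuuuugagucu
miR-17-5p: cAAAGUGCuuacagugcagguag
miR-92a-3p: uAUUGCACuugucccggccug
miR-16-5p: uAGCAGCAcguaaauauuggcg
The seeds of miR-295-3p and miR-17-5p share the letters AAGUGC, so a match to one can overlap a match to the other. miR-295-3p had 472 ± 126 RPM (reads scaled to the total of a small RNA library) at day 8 of treatment and 20700 ± 2300 RPM at day 0 (SD, n = 3 libraries each), so 2.28% was left. miR-92a-3p had 647 ± 168 RPM at day 8 and 21800 ± 3750 RPM at day 0. miR-17-5p was scarcer, with 3.73 ± 1.26 RPM at day 8 and 258 ± 24.8 RPM at day 0. miR-16-5p had 17.3, 2 and 7.99 RPM at day 8, against 3, 3.68 and 1.75 RPM at day 0, so the days overlapped.

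Perfect matches to the 7 seed bases (AGCACTT for miR-295-3p, GCACTTT for miR-17-5p, GTGCAAT for miR-92a-3p, TGCTGCT for miR-16-5p and CTACCTC for let-7a-5p, read on the transcript's own strand) were searched in the longest listed transcript of each gene. The seed of let-7a-5p, which had 0 RPM at day 0, was searched too, with 8 matches in Kcnq1ot1, 4 in Neat1, 1 in Firre and 0 in the other 4 genes. For miR-17-5p there were 6 matches in Kcnq1ot1, 3 in Neat1 and 2 in Tug1, and for miR-92a-3p 3 in Kcnq1ot1 and 1 in Tug1. For miR-295-3p there were 11 matches in Kcnq1ot1, 4 in Neat1, 2 in Tug1, 1 in Malat1 and 0 in Firre, Pvt1 and Miat. Per length that was 1.18 matches per 10 kb in Kcnq1ot1, 1.93 in Neat1, 2.98 in Tug1 and 1.43 in Malat1, against 1.07 over 1062 other expressed lncRNAs, 16.1% of which held a match. The windows below are GRCm38 (mm10), minus strand, with the match in capitals. They are shown because they are the only miR-295-3p matches of Malat1 and Tug1, the most abundant of the 7 RNAs, beside the Neat1 window most like that of Malat1.
Malat1 at chr19:5802066-5802094: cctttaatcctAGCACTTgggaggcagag
Neat1 at chr19:5834223-5834251: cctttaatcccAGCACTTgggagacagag
Tug1, first, at chr11:3644736-3644764: cctctttttatAGCACTTtacaggttcaa
Tug1, second, at chr11:3644718-3644746: tacaggttcaaAGCACTTtcatatacatg
The Malat1 and Neat1 windows share the 12 bases AGCACTTGGGAG, with which 12.9% of the AGCACTT matches of the other lncRNAs (26 of 202) also begin. The Tug1 windows overlap and lie inside a stretch that is an intron in the transcripts Tug1-202 and Tug1-203 and an exon in Tug1-201.

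Firre carried a repeated match to another seed. Its longest listed transcript, Firre-206 of 5555 bases, held TGCTGCT 23 times, or 41.4 per 10 kb, against 2.11 per 10 kb over the 1062 other lncRNAs. None of those 1062 had more matches (highest 21), although 7 had a higher density. In 10 of the 23 windows the match followed the same 11 bases, as in the first window below, and the second window occurred 4 times. The first window occurred 5 times. Both are shown because they were the most frequent of 12 distinct windows, some of which occurred only once.
Firre repeat at chrX:50615481-50615509: cccctgggattTGCTGCTcagaacctgag
Firre repeat at chrX:50612770-50612798: ctggaggccggTGCTGCTggacccagatg
None of the 23 was followed by an A, which an 8-base match would need. miR-16-5p, whose values per library are given above, was at 9.1 ± 7.71 RPM at day 8 and 2.81 ± 0.978 RPM at day 0 in these cells. Any other microRNA with this seed was not counted.

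Signal in the 4sU libraries is given in TPM, a share of the library corrected for transcript length, summed over the transcripts of a gene, separately for exonic and intronic entries. Dicer1 checked the labels: its exonic signal was 1.20, 3.23, 3.37 and 2.95 TPM in depleted preexisting RNA, against 13.4, 17.6, 17.9 and 17.2 TPM in WT preexisting RNA (log2 change -2.29, SE 0.248, limma adjusted p = 0.0347). In labelled RNA the exonic log2 change of Dicer1 was -1.26 (SE 0.248, limma adjusted p = 0.143), so it was not called there. Its intronic signal was not lower, with log2 changes of 0.27 in labelled and 0.15 in preexisting RNA. The summed level of 9 embryonic stem cell markers ran from 968 to 1580 TPM in depleted libraries and from 1210 to 1720 TPM in WT libraries. Markers of fibroblasts (1 of 7 genes at a mean of at least 1 TPM), primitive endoderm (0 of 5) and trophoblast (0 of 4) summed to at most 6.76 TPM in any library. The 6 neural or mesoderm markers summed to 7.74 to 40.6 TPM in depleted libraries and 6.18 to 14.5 TPM in WT libraries; the part of that difference in the results below was not tested. In such bulk samples, fewer cells of a type and less RNA per cell cannot be told apart.

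Below, the 4 values of a group are given in the order culture 1 at 10 and 15 minutes, then culture 2 at 10 and 15 minutes, and means and SDs are over the 2 cultures. Malat1 was the most abundant of the 7, with exonic signal about an order of magnitude above Tug1. Malat1 had 1644, 1301, 2062 and 1497 TPM in depleted labelled RNA, against 1255, 1322, 2039 and 1946 TPM in WT labelled RNA. In preexisting RNA it had 908, 787, 1214 and 1190 TPM in depleted cells and 754, 787, 1128 and 937 TPM in WT cells. The genotypes overlapped in both fractions, and in preexisting RNA both culture 2 libraries stood above both culture 1 libraries in either genotype. The log2 change with depletion was 0.00 in labelled RNA (95% interval -0.60 to 0.60) and 0.18 in preexisting RNA (-0.42 to 0.78).

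Neat1 was present at a small fraction of the Malat1 level and in labelled RNA differed more between cultures than between genotypes. It had 17.6, 19.2, 41.8 and 41.5 TPM in depleted labelled RNA, against 11.9, 15.8, 26.9 and 27.3 TPM in WT labelled RNA. In preexisting RNA it had 6.69, 9.60, 12.4 and 4.77 TPM in depleted cells and 4.90, 3.31, 7.43 and 6.42 TPM in WT cells. In labelled RNA of either genotype both culture 2 libraries stood above both culture 1 libraries, and the genotypes overlapped in both fractions. The log2 change was 0.50 in both fractions, with intervals of -0.53 to 1.53 in labelled RNA and -0.53 to 1.52 in preexisting RNA.

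The Neat1 locus makes a short RNA and a long one from the same start, and the long one is required for paraspeckles. The short Neat1-202 averaged 19.3 TPM in labelled RNA and 5.27 TPM in preexisting RNA over 8 libraries each. The long Neat1-201, of 20771 bases, averaged 4.15 TPM in labelled RNA and 1.03 TPM in preexisting RNA. Both were richer in labelled RNA by a similar factor, 3.66 for the short and 4.01 for the long. The long RNA had 3.39, 3.83, 6.17 and 6.09 TPM in depleted labelled RNA and 2.38, 2.76, 4.31 and 4.26 TPM in WT labelled RNA. Since the long RNA holds nearly all of the sequence of the short one, the division of reads between them is RSEM's estimate.

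Firre, transcribed from the X chromosome, binds chromatin near its own locus and at other chromosomes. It had 24.7, 34.9, 36.9 and 34.6 TPM in depleted labelled RNA, against 41.5, 38.2, 43.3 and 45.6 TPM in WT labelled RNA. In preexisting RNA it had 18.8, 14.4, 16.5 and 9.06 TPM in depleted cells and 12.7, 13.6, 23.3 and 13.8 TPM in WT cells. All 4 depleted labelled libraries lay below all 4 WT ones, a separation seen in 4.5% of the 21821 genes and entries tested, while the preexisting libraries overlapped. The change in labelled RNA was a ratio of means of 0.778 and a log2 change of -0.37 (SE 0.239, interval -0.92 to 0.19, limma adjusted p = 0.538). In preexisting RNA the log2 change was -0.11 (-0.66 to 0.45).

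Pvt1 had 26.5, 32.5, 33.4 and 31.9 TPM in depleted labelled RNA, against 31.0, 24.7, 23.6 and 26.9 TPM in WT labelled RNA. In preexisting RNA it had 20.8, 7.79, 19.8 and 10.3 TPM in depleted cells and 7.34, 10.1, 12.5 and 7.93 TPM in WT cells. The depleted preexisting libraries split by labelling time, with both 10 minute libraries high and both 15 minute ones within the WT range. The preexisting log2 change was 0.51 (SE 0.194, interval 0.06 to 0.96; limma adjusted p = 0.232), and without the 10 minute preexisting libraries, an alternative added after the data were seen, it was 0.00 (adjusted p = 1). Myc, the neighbour of Pvt1, had 36.2, 45.3, 4.33 and 13.4 TPM in depleted preexisting RNA and 46.7, 56.1, 8.84 and 12.7 TPM in WT preexisting RNA. Myc was thus lower in culture 2 of both genotypes, and Pvt1 showed no such split.

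Kcnq1ot1 was scarce but steady. It had 3.81, 4.43, 4.59 and 4.07 TPM in depleted labelled RNA, against 3.80, 3.74, 4.27 and 4.50 TPM in WT labelled RNA. In preexisting RNA it had 1.21, 1.19, 0.965 and 1.15 TPM in depleted cells and 0.948, 0.899, 0.796 and 0.799 TPM in WT cells. All 4 depleted preexisting libraries lay above all 4 WT ones, as for 7.03% of genes tested, with a ratio of means of 1.31. On the log2(TPM + 1) scale, which understates changes this low, that was 0.19 (interval -0.30 to 0.69, limma adjusted p = 0.698). Kcnq1ot1 is a single exon of 93092 bases that lies wholly within Kcnq1 on the opposite strand, and the use of strand in counting is not given in the sources used here. The intronic signal of Kcnq1 was 2.89, 3.09, 3.27 and 3.12 TPM in depleted labelled RNA and 2.28, 2.38, 2.76 and 2.75 TPM in WT labelled RNA, while its exons averaged 0.126 ± 0.0491 TPM in depleted and 0.0688 ± 0.00247 TPM in WT labelled RNA. Reads of Kcnq1ot1 and of the Kcnq1 introns over it cannot be told apart.

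Tug1 was the second most abundant of the 7. It had 104.5, 90.6, 124.8 and 114.1 TPM in depleted labelled RNA, against 91.7, 74.5, 117.6 and 135.7 TPM in WT labelled RNA. In preexisting RNA it had 130.3, 107.4, 160.1 and 111.5 TPM in depleted cells and 74.8, 96.1, 149.8 and 124.3 TPM in WT cells. The genotypes overlapped in both fractions, and culture 2 was above culture 1 at each labelling time within each genotype and fraction. The log2 change with depletion was 0.08 in labelled RNA (-0.58 to 0.73) and 0.22 in preexisting RNA (-0.44 to 0.88).

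Miat was close to undetected, with exonic signal of 0.255 ± 0.0735 TPM in depleted and 0.367 ± 0.0202 TPM in WT labelled RNA. In preexisting RNA its exons had 0.0495 ± 0.0099 TPM in depleted cells and 0.116 ± 0.0647 TPM in WT cells, and 2 depleted libraries listed it at 0. Its mean of 0.197 TPM was under the minimum of 1 TPM, so its exonic signal was not tested.

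**Figure D1:**
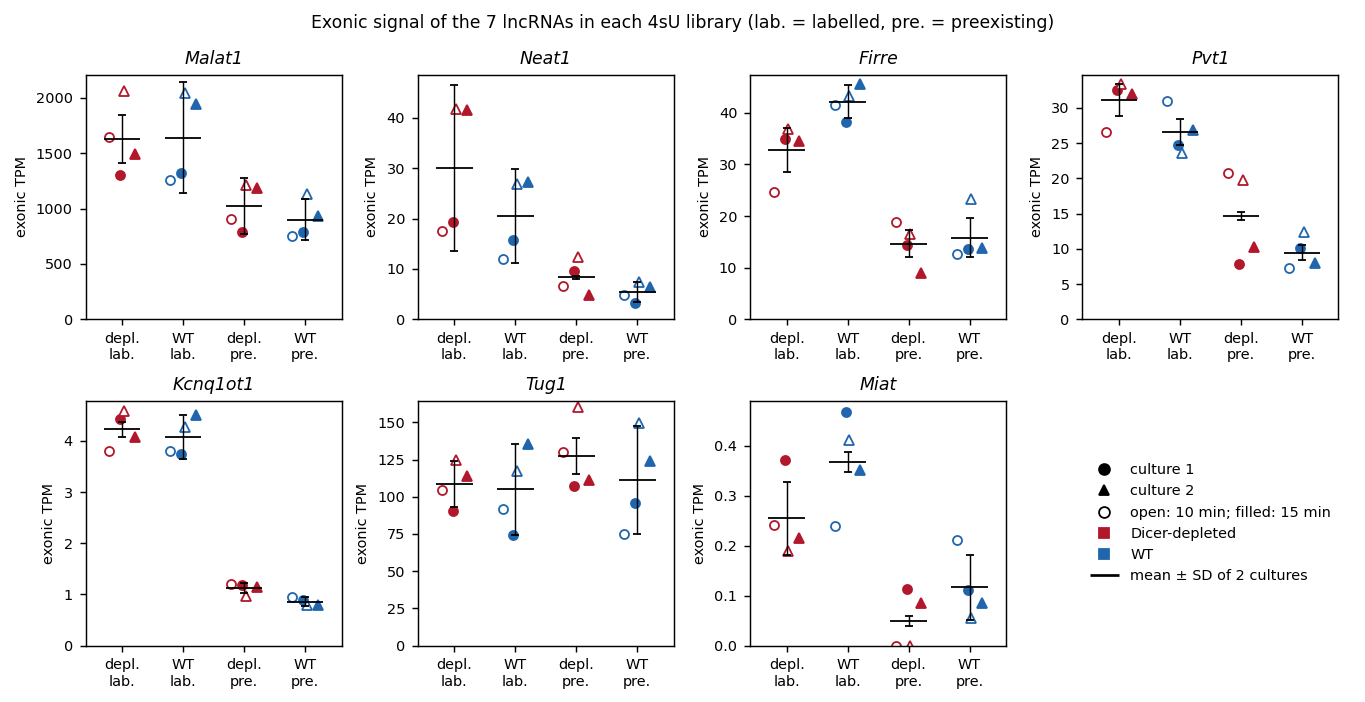
Exonic signal in TPM (each panel with its own axis from 0) of the 7 lncRNAs in each 4sU library; circles are culture 1, triangles culture 2, open symbols 10 and filled symbols 15 minutes, and bars the mean ± SD of 2 cultures. Neat1 labelled RNA separates by culture (17.6 and 19.2 against 41.8 and 41.5 TPM in depleted cells), and the labelled Firre libraries of depleted cells lie below those of WT cells.

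Across these comparisons of genotype, 0 of the 6 lncRNAs tested by exons were called at an adjusted p under 0.05, in labelled or in preexisting RNA. Over all 21821 genes and entries, 0.128% (28) were called in labelled RNA and 0.646% (141) in preexisting RNA, so a count of 0 among 6 is near the background. At an unadjusted p under 0.05, 1 of the 6 (Pvt1) passed in preexisting RNA and 0 in labelled RNA, against 17.8% of all genes and entries in preexisting and 13.6% in labelled RNA. The median log2 change over all genes was 0.06 in labelled and 0.03 in preexisting RNA. The intervals still allow changes of up to a log2 change of 1.53 for Neat1 and 0.54 for Kcnq1ot1 in labelled RNA, so equal levels are not shown.

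The preexisting to labelled ratio stands in for stability, and its difference between depleted and WT cells was tested as an interaction. Both fractions of a culture were treated as independent, so their pairing did not enter the intervals or p-values here. The log2 difference of the ratio between depleted and WT cells was 0.18 for Malat1 (interval -0.67 to 1.03), 0.26 for Firre (-0.52 to 1.04) and 0.28 for Pvt1 (-0.35 to 0.92). It was 0.15 for Kcnq1ot1 (-0.55 to 0.85), 0.15 for Tug1 (-0.78 to 1.08) and -0.00 for Neat1 (-1.46 to 1.45). The limma adjusted p was 0.9999 for each of the 6, and 0.00458% of all genes (1 of 21821) were called; at an unadjusted p under 0.05, 0 of the 6 passed. Grouped by seed content, the fitted values for Kcnq1ot1, Neat1, Tug1 and Malat1, which hold a miR-295-3p match, lay between -0.00 and 0.18. Those for Firre and Pvt1, which hold none in their longest transcript, were 0.26 and 0.28. These values sum all transcripts of a gene, but only Malat1-201, Neat1-201 and Tug1-201 hold the matches of their genes in an exon. These transcripts had 42.6, 16.4 and 25% of the exonic signal of their genes in labelled RNA. In preexisting RNA they had 38.8, 14.9 and 21.2%. All 6 intervals overlapped, and the order of these groups was not stable: with 15 minute libraries only the value for Pvt1 was -0.31, and without the 10 minute preexisting libraries it was -0.22.

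**Figure D2:**
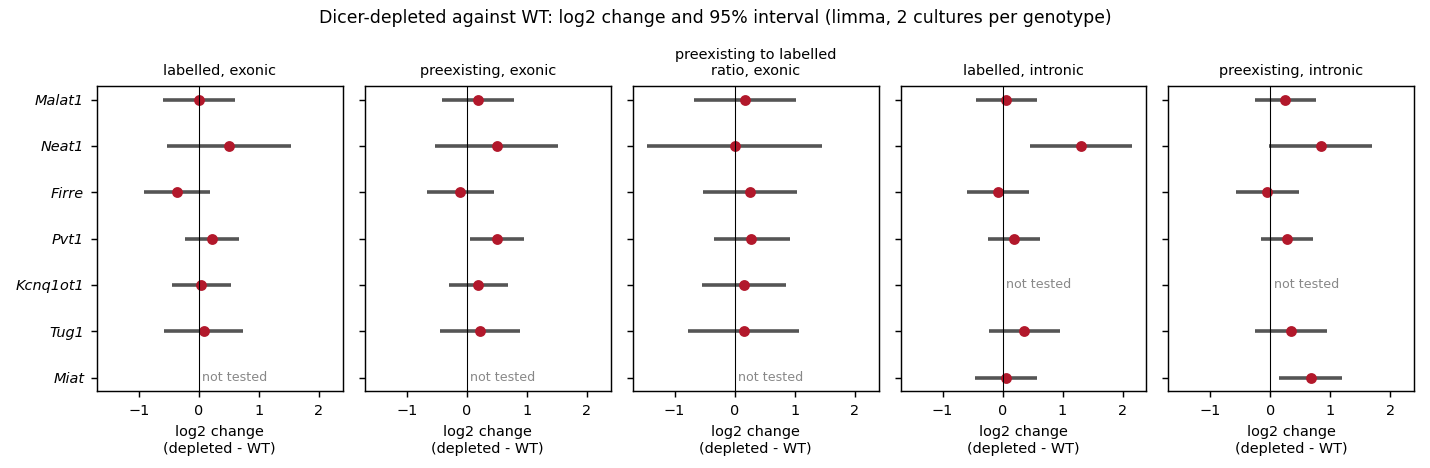
Log2 change between Dicer-depleted and WT cells (points) with its 95% interval (lines) for each lncRNA and comparison, from limma with 2 cultures per genotype. All exonic intervals but that of Pvt1 in preexisting RNA (0.06 to 0.96) include 0, and the intronic intervals of Neat1 in labelled RNA (0.46 to 2.16) and Miat in preexisting RNA (0.15 to 1.19) lie above it without passing the adjusted threshold.

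Most of these lncRNAs were richer in newly made than in preexisting RNA. The pairing of the fractions within a culture did not enter this fit. With both genotypes averaged, 5 of the 6 tested by exons were higher in labelled than in preexisting RNA, against 36.7% of all genes and entries and 70.3% of the 1068 lncRNAs tested. The log2 difference was 1.69 for Neat1 (SE 0.314, adjusted p = 0.0026), 1.37 for Kcnq1ot1 (SE 0.152, adjusted p = 0.000218), 1.27 for Pvt1 (SE 0.137, adjusted p = 0.000196), 1.27 for Firre (SE 0.169, adjusted p = 0.00052) and 0.76 for Malat1 (SE 0.185, adjusted p = 0.00946, limma). The call for Malat1 was lost without depleted culture 1 (0.70, adjusted p = 0.0845) or culture 2 (0.82, adjusted p = 0.057). Lower in labelled RNA were 15.6% of all genes and 0 of the 6. The median was 1.08 over lncRNAs and 0.26 over all genes, so Malat1 was below the median lncRNA and above the median gene. Tug1 was the exception, at -0.15 (SE 0.202, interval -0.61 to 0.32, adjusted p = 0.57).

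In TPM, labelled exceeded preexisting Neat1 3.59-fold in depleted and 3.71-fold in WT cells, and Kcnq1ot1 3.75-fold in depleted and 4.74-fold in WT cells. For Pvt1 the ratio was 2.12 in depleted and 2.81 in WT cells, and for Firre 2.23 in depleted and 2.66 in WT cells. For Malat1 it was 1.59 in depleted and 1.82 in WT cells, and for Tug1 0.852 in depleted and 0.943 in WT cells. The order of the 6 was the same in both genotypes except for Firre and Pvt1, which changed places, and the intervals of Kcnq1ot1, Neat1, Firre and Pvt1 overlapped. Because each library is scaled to a fixed sum, these are relative shares: centring on the median of tested genes lowers every exonic value by 0.51, after which Malat1 is at 0.24 (adjusted p = 0.264) and Tug1, at -0.66, is called lower in labelled RNA (adjusted p = 0.0164).

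**Figure D3:**
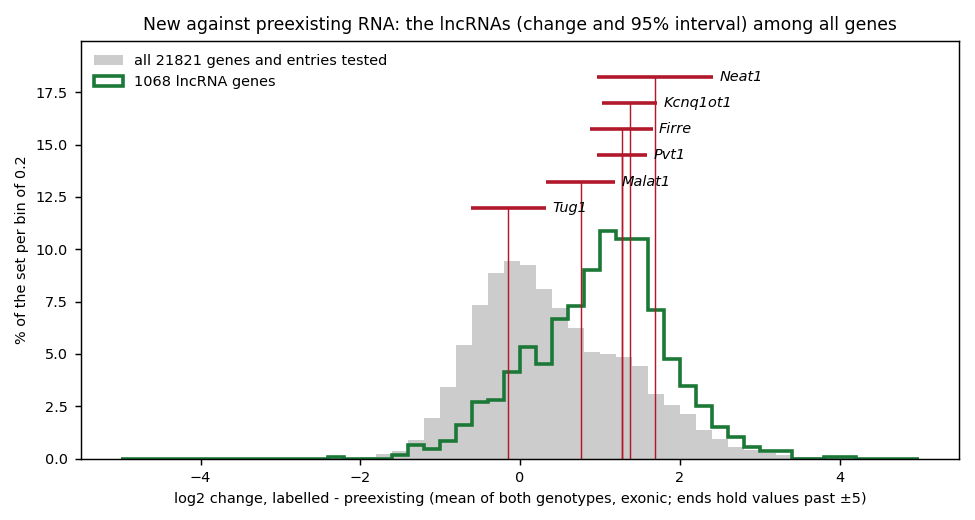
Distribution of the log2 difference between labelled and preexisting RNA (horizontal) as the percentage of each set per bin (vertical), for all tested genes and entries (grey) and lncRNAs (green), with the 6 tested members and their 95% intervals in red. Tug1 (-0.15) sits with the bulk of all genes, Malat1 (0.76) between the peaks, and the other 4 (1.27 to 1.69) within the lncRNA peak.

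Intronic signal, which marks RNA not yet spliced, took 15.6 to 23.3% of labelled and 4.41 to 6.68% of preexisting signal in a library. Of the 7 genes, 6 had intronic entries, and 5 of these were higher in labelled RNA, against 96.1% of the 12472 genes tested, with a median log2 difference of 1.65. Pvt1 (2.39, SE 0.130, limma adjusted p = 1.24e-06) and Firre (2.29, SE 0.157, adjusted p = 2.66e-06) were above that median. Tug1 (1.56), Miat (1.39) and Neat1 (0.96) were called but below it, and after centring, which lowers intronic values by 1.72, they were at -0.16, -0.33 and -0.76, the value for Neat1 then being called lower in labelled RNA (adjusted p = 0.0301). With 10 minute libraries only, Neat1 was not called (0.85, adjusted p = 0.112). Malat1 was not called, at -0.05 (SE 0.155, adjusted p = 0.763).

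The word intronic has a special sense in these loci: all intronic entries of Malat1 and Neat1, and 91.5 to 100% of the intron length of Tug1, lie inside exons of other transcripts of the same gene. A single entry, the 271 base intron of Malat1-203 at chr19:5801967-5802237, held 92.1% of the intronic Malat1 signal in labelled RNA and 97.2% in preexisting RNA. It had 2739, 1907, 2743 and 1731 TPM in depleted labelled RNA and 1463, 2551, 2388 and 2372 TPM in WT labelled RNA, and averaged 2237 TPM in labelled and 2444 TPM in preexisting RNA. That is above the whole exonic sum of Malat1, and the stretch holds the Malat1 miR-295-3p match shown above. The stretch also lies wholly within Gm37376, a gene on the opposite strand. Since the use of strand in counting is not given, whether reads of Gm37376 entered this signal is not known. The ends of the intron, with its first and last 2 bases in capitals, are shown to mark where the entry begins and stops.
Malat1-203 intron, 5′ end: tttgaaaatgagGTgtagttttaaaa
Malat1-203 intron, 3′ end: gaaaaaacaaaaAGgttaggctagta

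Within Tug1, introns differed in how they divided between the fractions. The 1033 base intron of Tug1-201 (chr11:3645524-3646556, minus strand) had 25.5, 28.2, 22.6 and 24.4 TPM in depleted labelled RNA and 19.1, 11.5, 21.4 and 23.0 TPM in WT labelled RNA. In preexisting RNA the same intron had 1.90, 2.58, 2.46 and 1.08 TPM in depleted cells and 1.74, 1.03, 2.15 and 2.49 TPM in WT cells. For this single entry all 8 labelled libraries lay above all 8 preexisting ones. With intronic entries summed per gene, an unlike measure, 83.7% of genes tested were separated in this way. The mean ratio of labelled to preexisting for the entry was 12.6 in depleted and 10.1 in WT cells. The 1821 base intron of Tug1-204 averaged 9.01 TPM in labelled and 9.21 TPM in preexisting RNA. The junctions of the Tug1-201 intron, which are those of the transcripts Tug1-202 and Tug1-203 too, begin with GT and end with AG.
Tug1-201 intron, 5′ end: aagtgaactacgGTacttgccatttt
Tug1-201 intron, 3′ end: cctgccccttctAGtcccgtgcctcc

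The intronic entries of Firre differed in this ratio. Those confined to the 5′ part of the gene, Firre-204, Firre-202 and Firre-203, were 11.6, 9.33 and 9.06 times higher in labelled than in preexisting RNA. Firre-206 and Firre-201, which span nearly the whole gene, were at 9.46 and 7.05. Among entries confined to the 3′ part, the ratio was 2.07 in Firre-209, 2.22 in Firre-210, 4.16 in Firre-205, 2.99 in Firre-207 and 3.47 in Firre-208. Firre-204 averaged 9.11 TPM in labelled and 0.786 TPM in preexisting RNA, and Firre-210 averaged 4.97 TPM in labelled and 2.23 TPM in preexisting RNA. In Firre-209 and Firre-210, 29.7 and 35.8% of the intron length is exonic in other Firre transcripts, and in Firre-205 and Firre-207 41.8 and 22.2%. In Firre-208 this share was only 6.83%, and in Firre-204 it was 0.309%. Exonic reads can thus enter the entries of the 3′ part, and their share in the ratios was not tested. For Firre-204 the ratio was 10.9 in depleted and 12.4 in WT cells. Pvt1 intronic entries had ratios of 4.88 to 7.92, and at most 1.71% of their intron length was exonic.

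**Figure D4:**
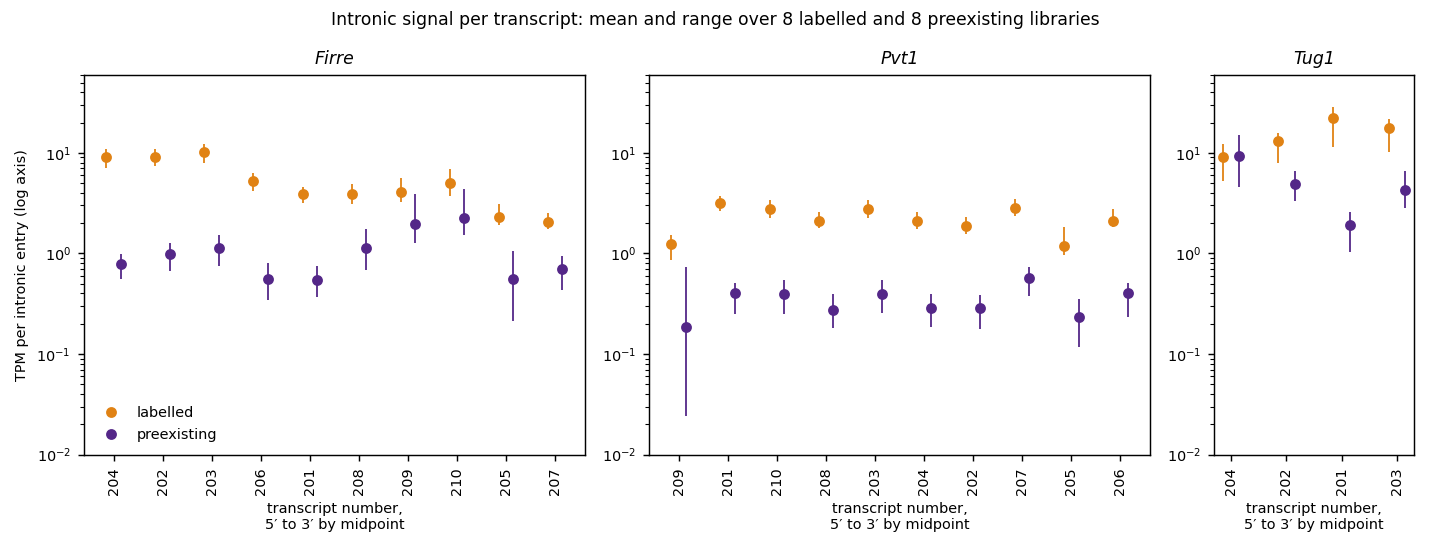
Intronic signal in TPM (log axis) of each listed transcript of Firre, Pvt1 and Tug1, ordered 5′ to 3′ by transcript midpoint; points are means and lines the range over 8 labelled (orange) and 8 preexisting (purple) libraries. The gap between fractions is wider in Firre entries confined to the 5′ part (11.6-fold in transcript 204) than in those confined to the 3′ part (2.22-fold in 210, 2.99-fold in 207), while 206 and 201 span nearly the whole gene, persists along Pvt1, and in Tug1 is widest for transcript 201 and absent for 204.

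Between genotypes, intronic signal as a whole was higher in depleted cells: the median log2 change over 12472 genes was 0.28 in labelled and 0.21 in preexisting RNA, and 4.23% of genes (528) were called in labelled RNA and 0.016% (2) in preexisting RNA. By limma 0 of the 6 lncRNAs were among them; at an unadjusted p under 0.05, 1 passed in labelled RNA (Neat1) and 1 in preexisting RNA (Miat), against 31.5% of genes in labelled and 21.2% in preexisting RNA. Neat1 came closest, with intronic signal of 2.52, 4.05, 3.92 and 3.17 TPM in depleted labelled RNA, against 0.157, 0.322, 1.34 and 1.69 TPM in WT labelled RNA. All depleted libraries lay above all WT ones, as for 24.9% of genes, and the log2 change was 1.31 (SE 0.366, interval 0.46 to 2.16, limma adjusted p = 0.077). Neat1 intronic signal averaged 1.38 TPM over the 16 libraries, near the minimum of 1 TPM, which it reached through the depleted libraries. Its separation and log2 change thus come from a gene let into the test by the group where it was high. All Neat1 introns lie inside the exon of Neat1-201, so this signal is not separate from its exonic reads.

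Tug1 intronic signal was 67.8, 69.6, 69.7 and 67.3 TPM in depleted labelled RNA, against 53.1, 34.9, 64.1 and 66.9 TPM in WT labelled RNA. These groups did not overlap either, as for 24.9% of genes, but the nearest values, 67.3 TPM in depleted and 66.9 TPM in WT cells, were close. The log2 change (0.36, interval -0.23 to 0.96, limma adjusted p = 0.352) rested on the low culture 1 of WT. With single cultures left out it went as low as 0.07. Miat introns had 3.58, 0.654, 0.725 and 2.21 TPM in depleted preexisting RNA, against 0.366, 0.412, 0.939 and 0.740 TPM in WT preexisting RNA. Of those, 2 depleted libraries were high, from different cultures and labelling times, and the other two were within the WT range (log2 change 0.67, SE 0.223, interval 0.15 to 1.19, limma adjusted p = 0.165). Miat overlaps Gm26953, a lncRNA on the opposite strand, over 86.2% of its span, so the source of this signal cannot be told apart. Malat1 (0.06), Firre (-0.08) and Pvt1 (0.19) were below the median gene in labelled RNA.

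Between labelling times, 15 against 10 minutes, the labelled fraction showed no called change in the 6 tested by exons, with 0.00458% (1) of all genes called; at an unadjusted p under 0.05, 0 of the 6 passed (limma). The log2 change with 5 more minutes was -0.20 for Malat1 (interval -0.55 to 0.15), -0.11 for Tug1 (-0.40 to 0.19) and 0.13 for Neat1 (-0.16 to 0.41). It was 0.09 for Firre (-0.25 to 0.42), 0.02 for Pvt1 (-0.31 to 0.35) and 0.02 for Kcnq1ot1 (-0.30 to 0.34).

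Partner proteins, neighbours and other lncRNAs were read from 5 lists, chosen with earlier results of these data known. By limma, 0 of their 66 genes tested by exons were called between genotypes in either fraction, and at an unadjusted p under 0.05 there were 4 in labelled and 8 in preexisting RNA, where 13.6% and 17.8% of all genes and entries passed. Among 15 tested paraspeckle genes, the smallest p in preexisting RNA was that of Nudt21, a subunit of a cleavage factor for 3′ ends (log2 change -0.65, SE 0.207, limma adjusted p = 0.175), with a list median of -0.01. Among 12 nuclear speckle genes it was that of the splicing factor Srsf2 (0.36, adjusted p = 0.266), with a median of 0.02. Among 10 proteins that bind these RNAs or process them it was that of Elac2, which trims transfer RNA precursors and the transfer RNA-like piece cut from Malat1 (-0.69, adjusted p = 0.242), with a median of 0.18. Among 10 neighbours or genes controlled in cis, it was that of Tspan32 in the Kcnq1ot1 domain (1.47, SE 0.247, adjusted p = 0.0521), with a median of -0.35. Among 19 other lncRNAs, it was that of Mir124a-1hg, the host of miR-124 (1.50, SE 0.402, adjusted p = 0.133), with a median of -0.05.

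Between fractions these protein genes went both ways. Of all 21821 genes and entries, 36.7% were called higher and 15.6% lower in labelled RNA, with a median log2 difference of 0.26. No list was tested against these shares. In labelled relative to preexisting RNA, 4 of 15 paraspeckle genes were higher (among them Taf15 at 0.91 and Pspc1 at 0.88) and 4 were lower (among them Sfpq at -1.04 and Nono at -0.57, which bind Neat1), with a median of 0.27. Of 12 nuclear speckle genes, 0 were higher and 6 were lower, such as Srrm1 (-0.89) and Srsf2 (-0.65), with a median of -0.45. Of the 10 RNA partners, Celf3 (1.11) was higher and 6 were lower, such as the Polycomb subunit Suz12 (-0.83) and Jarid2 (-0.65). Of the 10 neighbours, Tspan32 (1.36) was higher, and Cd81 (-1.63) and Ascl2 (-0.47) were lower. Of the 19 other lncRNAs, 14 were higher, near the share of 70.3% over all lncRNAs tested, such as Dancr (2.75), Platr4 (2.53) and Mir17hg (1.82), and 1 was lower, 2900097C17Rik (-0.78), also known as Norad, with a median of 1.03 against 1.08 over all lncRNAs tested.

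Likeness to other genes over the 16 libraries is given as Pearson's r of log2(TPM + 1), as a description: the libraries share fractions, cultures and labelling times. Malat1 was most like the lincRNA 1300002E11Rik (r = 0.957) and Zfp968 (0.955), and Neat1 most like Nhlrc3 (0.935) and Cacna1a (0.934). Firre was most like Zfp202 (0.967) and the lincRNA Gm26639 (0.955), and Pvt1 most like Gm28557 (0.964) and the small nucleolar RNA gene Gm22786 (0.950). Kcnq1ot1 was most like Gm43970 (0.990) and Gm43622 (0.989), and Tug1 most like Fgf4 (0.911) and Fut9 (0.903).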

How the data were processed

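The 4sU table holds a signal that the authors deposited under the name TPM; the columns sum to 9999997 to 10000003 units, so values were divided by 10 to give TPM. Per the labels' protocols, STAR 2.5.0 served to discard ribosomal reads, and STAR and RSEM then assigned the others to sequences of exons and introns, on mm10 per the submitters' processing notes. The count of reads and the use of strand are not given in the sources used here, so depth is unknown and no counting interval is given. The small RNA table holds raw counts as deposited; they were scaled to all reads of a library. Per the submitters' processing notes it was made with cutadapt 1.8, Bowtie2 and HTSeq.

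Entries were matched to GENCODE M21 by transcript; 110366 of 121429 exonic and 89935 of 91702 intronic entries matched, and entries without a match held 5.97 to 7.73% of signal. Sums per gene were tested with limma 3.58.1 (trend, R 4.3.3) on log2(TPM + 1), the 10 and 15 minute values of a culture averaged on the log scale, all 8 culture means in 1 fit, for features with a mean of at least 1 TPM over 16 libraries. Averaging on the log scale was chosen after the files were seen, and averaging TPM first was an alternative. P-values were two-sided and adjusted by Benjamini and Hochberg over 21821 exonic or 12472 intronic features, with a threshold of 0.05. They measure the spread between 2 cultures per group only. Labelled and preexisting RNA of a culture were fitted as independent in the ratio and fraction comparisons. The labelling times were compared over the 8 labelled libraries with culture as a block. The fit was tested on simulated data. Named were the 7 members, Dicer1, list genes past the threshold or else the one of smallest p per list, and the 2 genes most alike to each member among those with at least 5 TPM; only examples of list genes are given. The members and lists were chosen with earlier results of these data known.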

Additional observations from a re-analysis of the deposited data

Results flagged for a closer look

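Among 48 sets of 4 libraries (6 lncRNAs by exons and 6 by introns, each genotype and fraction), 2 held a library far from the other 3; chance flags about 1 in 20 sets. Exonic Firre was 23.3 TPM in the WT preexisting library of culture 2 at 10 minutes, against 12.7 to 13.8 TPM in the other 3 libraries. Intronic Malat1 was 1614 TPM in the WT labelled library of culture 1 at 10 minutes, against 2587 to 2689 TPM in the others.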

How the results depend on the processing

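Of the 643 values recomputed for single lncRNAs, 578 kept direction and side of the threshold, 56 changed sign, 6 lost the call and 3 gained it. The cause of these changes was not tested, except that centring shifts every value by the same amount (0.51 for exonic and 1.72 for intronic fractions; 0.28 and 0.25 for labelled and preexisting intronic genotype changes). The number of lncRNAs called in a comparison moved by over 1.5 times in 2 cases (a single lost call, given below, takes 5 to 4): with the replicate block Neat1 labelled intronic signal (1.31, adjusted p = 0.0394) made it 1, and at a mean of at least 5 TPM the intronic fraction comparison kept 3, since Neat1 and Miat were no longer tested. The titles number the replicates alike in both genotypes, and whether equal numbers share a batch is not given and was not tested. Deviations of depleted and WT cultures of the same number correlated positively, at 0.162 in labelled and 0.219 in preexisting RNA. The block took the counts of all genes called to 267 in preexisting exonic, 1276 in labelled intronic and 145 in preexisting intronic RNA, and 0 for the ratio. Malat1 lost its fraction call without the filter (0.76), on centring (0.24), with exonic and intronic entries summed (0.23) and without either depleted culture (0.70 to 0.82), and Neat1 its intronic one at 10 minutes only (0.85); Malat1 intronic became called on centring (-1.77). Signs changed on centring in labelled exonic RNA (Tug1 -0.02, Malat1 -0.09, Kcnq1ot1 -0.05), the Neat1 ratio (0.05), labelled introns (Malat1 -0.22, Pvt1 -0.09, Miat -0.22), preexisting Malat1 introns (0.00) and intronic fractions (Tug1 -0.16, Neat1 -0.76, Miat -0.33). They changed with 10 minute libraries only for preexisting Firre (0.03), the Malat1 ratio (-0.01) and labelled Miat introns (-0.05). With 15 minute libraries only they changed for labelled Malat1 (-0.20), the ratios of Tug1 (-0.01), Neat1 (0.04) and Pvt1 (-0.31), labelled Malat1 introns (-0.40) and preexisting Firre introns (0.01). With exonic and intronic entries summed they changed for the Tug1 fraction (0.28), the Neat1 ratio (0.00) and labelling time in Firre (-0.09) and Pvt1 (-0.04), and the Neat1 ratio was 0.04 at a pseudocount of 0.1. Of the alternatives added after the data were seen, leaving out the 10 minute preexisting libraries changed the ratios of Tug1 (-0.07) and Pvt1 (-0.22), preexisting Firre introns (0.01) and the Malat1 intronic fraction (0.02), and averaging TPM first the Neat1 ratio (0.06).

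Leaving out each culture gave labelled exonic ranges of -0.23 to 0.38 for Tug1, -0.07 to 1.07 for Neat1, -0.31 to 0.32 for Malat1 and -0.04 to 0.13 for Kcnq1ot1. In preexisting RNA they were -0.12 to 0.56 for Tug1, -0.32 to 0.10 for Firre and -0.07 to 0.43 for Malat1, and for the ratio -0.59 to 0.58 for Neat1 and -0.07 to 0.59 for Firre. For introns they were -0.10 to 0.22 (Malat1), -0.21 to 0.33 (Miat) and -0.20 to 0.03 (Firre) in labelled RNA, -0.26 to 0.16 (Firre) and -0.03 to 0.52 (Malat1) in preexisting RNA, and -0.19 to 0.10 for the Malat1 fraction. For labelling time they were -0.05 to 0.16 (Firre), -0.07 to 0.13 (Pvt1) and -0.03 to 0.07 (Kcnq1ot1). Counts of all genes called ranged over the alternatives from 0 to 257 in labelled exonic RNA (28 as reported), 0 to 267 in preexisting (141), 0 to 128 for the ratio (1), 5865 to 16635 for the fraction (11422), 1 to 2586 in labelled introns (528), 0 to 882 in preexisting introns (2), 4923 to 23208 for the intronic fraction (12089) and 0 to 3 for time (1). Depth is unknown, so the counting error of low values such as those of Miat is not given.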
